A study of Ovis aries with 24 samples.

Results

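The genes described here are those of the unfolded protein response and of protein folding in the endoplasmic reticulum (ER). They were chosen by symbol from a list of 33 genes, of which 32 had a row in both count tables and 1, CRELD2, had none, out of 27716 rows per table. By role the 32 genes are 3 stress sensors, 4 transcription factors, 3 targets of ATF4, 10 chaperones and co-chaperones, 3 protein disulfide isomerases, 8 genes of ER-associated degradation and 1 translocon subunit. After the removal of genes with low counts, 31 were tested in liver (not DERL3) and 30 in brain white matter (neither DERL3 nor TRIB3).

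The samples were liver and periventricular white matter (PVWM, the white matter beside the ventricles of the brain) of preterm lambs, in 3 groups with 4 animals in each tissue. Budesonide lambs were ventilated, with 2.5 mL/kg of the surfactant poractant alfa instilled into the trachea together with 0.25 mg/kg of budesonide, a glucocorticoid. Surfactant lambs were ventilated with 2.5 mL/kg of poractant alfa and no budesonide. Unventilated lambs received neither agent. In both ventilated groups 3 animals were females of 126 days of gestation and 1 was a male of 127 days (animal 054 with budesonide, animal 007 with surfactant). Unventilated animals 057 and 058, used in both tissues, were males of 127 days. Liver animal 059 and PVWM animal 060 were females of 128 days. The labels leave the sex of liver animal 060 and of PVWM animal 061, both of 128 days, blank. Animal numbers in the labels give 13 lambs, 11 of which supplied both tissues. Ventilation and surfactant instillation separate the same groups, so their effects cannot be told apart. Gestational age and the mix of sexes differed between those groups as well, and each was tried as a covariate.

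The unfolded protein response is the program by which a cell adjusts its ER to the load of proteins that enter it. Its 3 sensors span the ER membrane: IRE1-alpha (gene ERN1) splices the XBP1 transcript into the form that encodes an active factor, PERK (EIF2AK3) phosphorylates the initiation factor eIF2-alpha and so favours translation of ATF4, and ATF6 is cut in the Golgi to release a transcription factor. The factors raise transcription of chaperones, of enzymes that form disulfide bonds, of the machinery that returns misfolded proteins to the cytosol for degradation and, under lasting stress, of DDIT3 (CHOP). Hepatocytes secrete most plasma proteins and carry a large ER. Gene counts do not separate spliced from unspliced XBP1, and they measure neither phosphorylation of PERK nor cleavage of ATF6.

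Library totals were 16087620 to 23175121 counts in liver and 14929261 to 17532605 counts in PVWM. The tissue labels were checked against marker genes. ALB, the main plasma protein, ran from 39277 to 79116 CPM (counts per 1000000 of the effective library size) in liver and from 1.99 to 6.98 CPM in PVWM, and GFAP, the astrocyte filament, from 926 to 3326 CPM in PVWM and from 0.235 to 2.28 CPM in liver. In PVWM the surfactant library of animal 051 stood apart, with 13395 CPM summed over 9 oligodendrocyte lineage genes against 1051 to 3201 CPM in the other 11 libraries. CPM values below are scaled within each tissue. They are not adjusted for transcript length, so levels are compared between animals and not between genes. Gene levels in bulk tissue cannot tell fewer cells of a type from less RNA per cell.

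In the liver, surfactant lambs had higher transcript levels than unventilated lambs for all 3 sensors, for 3 of the 4 transcription factors and for 5 of the 10 chaperones, while the protein disulfide isomerases showed no called change. Of the 31 genes tested, 15 (48.4%) were higher and 3 (9.68%) lower at an adjusted p under 0.05, against 21.6% higher and 19.5% lower (41.1% in all) among all 16824 genes tested (edgeR quasi-likelihood test, Benjamini-Hochberg adjustment over all genes). The ranges of the 4 animals did not overlap for 11 of the higher and 2 of the lower genes of the list, against 18.7% and 18.8% of all genes (37.4% in either direction). The median log2 change was 0.82 over the 31 genes and -0.02 over all genes tested. CHAC1 is among the 15 higher genes and among the 11 without overlap. It passed the filter on low counts only through the ventilated groups, where it is high. Overlap of ranges was not recounted without such genes, so nothing is read from that count. Leaving out genes that passed through 1 of the 2 groups only, 14 of 30 genes (46.7%) were higher and 3 (10%) lower, against 21.7% higher and 18.9% lower of all genes. The steepest changes among those 30 genes were those of TRIB3, ERN1 and XBP1.

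**Figure D1:**
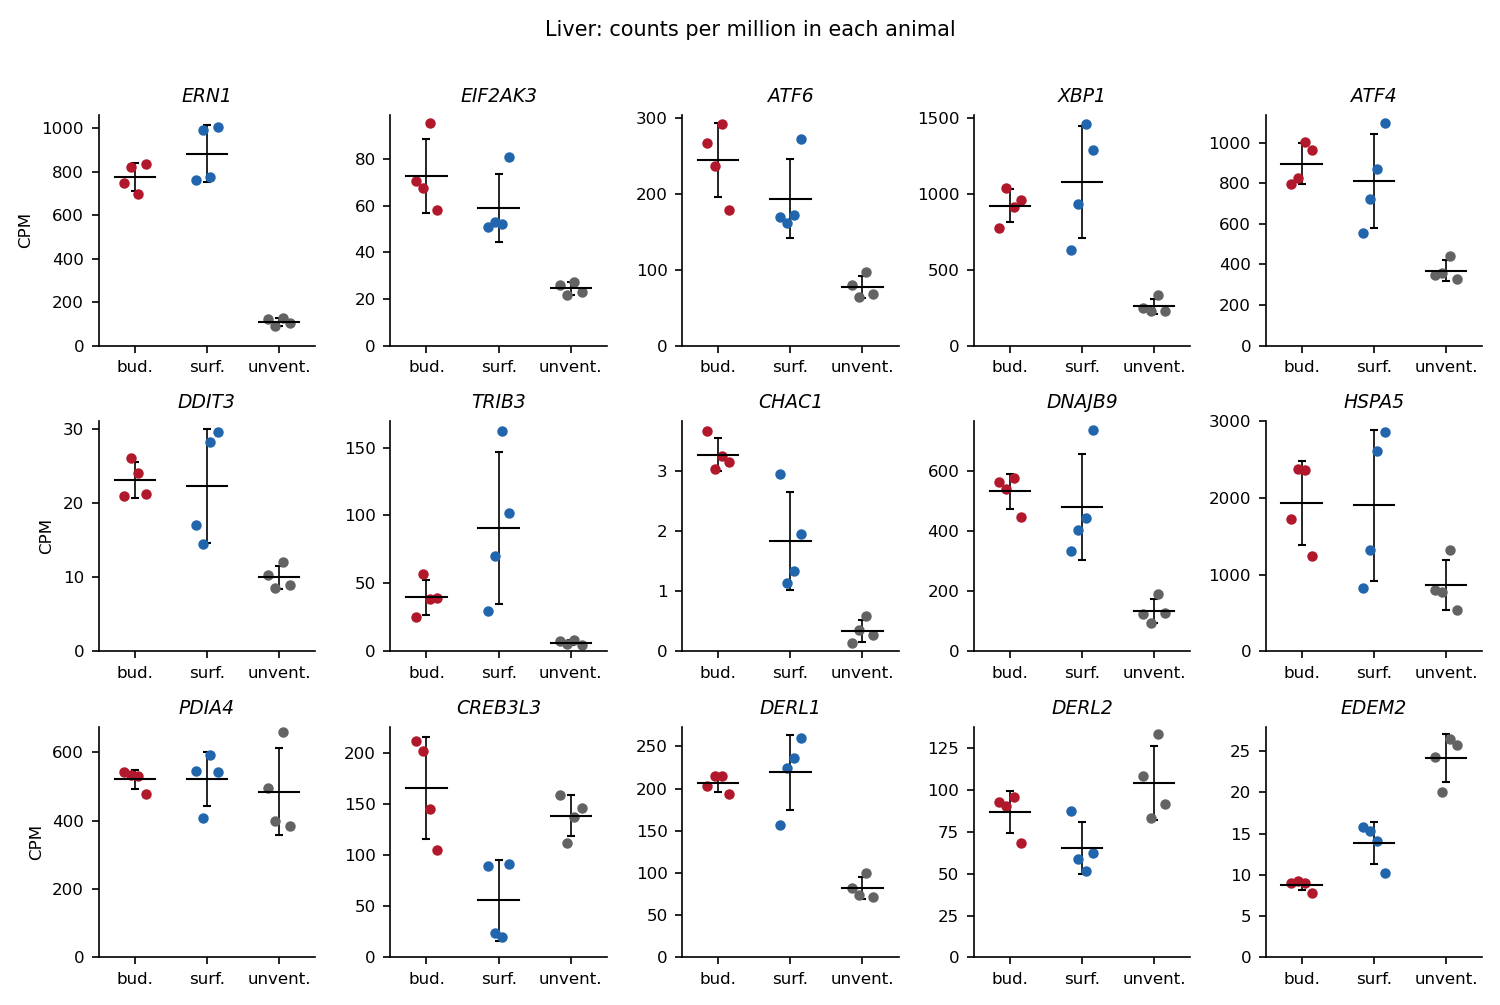
CPM of 15 genes in each liver, with 1 point per animal and 4 animals per group, from left to right budesonide, surfactant and unventilated (axes differ between panels). The 8 ventilated livers lie above the 4 unventilated livers for ERN1, XBP1, TRIB3, DNAJB9 and DERL1, and the PDIA4 panel shows groups that overlap.

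ERN1 had 750, 824, 697 and 836 CPM in budesonide livers, 763, 991, 776 and 1007 CPM in surfactant livers, and 121, 87.8, 125 and 102 CPM in unventilated livers. The lowest ventilated liver was thus far above the highest unventilated one. In surfactant against unventilated livers ERN1 rose 8.11-fold, a log2 change of 3.02 ± 0.17 (SE, n = 4 each; edgeR adjusted p = 1.05e-06). EIF2AK3 had 50.9, 52.8, 52.0 and 81.0 CPM in surfactant livers and 26.0, 21.6, 27.4 and 22.9 CPM in unventilated livers. It rose by a log2 change of 1.27 ± 0.20 (edgeR adjusted p = 0.000408). ATF6 had 169, 161, 171 and 272 CPM in surfactant livers and 79.8, 63.8, 96.7 and 67.8 CPM in unventilated livers, with a log2 change of 1.33 ± 0.22 (edgeR adjusted p = 0.000597). For both of these sensors the groups were apart, and surfactant animal 051 was well above the other 3 surfactant livers.

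Among the factors downstream, XBP1 had 633, 935, 1462 and 1293 CPM in surfactant livers and 251, 229, 331 and 225 CPM in unventilated livers, a log2 change of 2.06 ± 0.25 (edgeR adjusted p = 8.28e-05). ATF4, the factor of the PERK branch, had 796, 825, 1004 and 967 CPM in budesonide livers, 554, 721, 872 and 1101 CPM in surfactant livers, and 348, 358, 444 and 327 CPM in unventilated livers, a log2 change of 1.14 ± 0.20 in surfactant against unventilated livers (edgeR adjusted p = 0.00104). DDIT3, a factor linked to cell death under lasting stress, had 21.0, 26.1, 24.03 and 21.3 CPM in budesonide livers, 17.01, 14.5, 28.3 and 29.6 CPM in surfactant livers, and 10.3, 8.58, 12.1 and 8.97 CPM in unventilated livers, a log2 change of 1.17 ± 0.23 in surfactant against unventilated livers (edgeR adjusted p = 0.00183). All 3 were higher in each surfactant liver than in any unventilated liver. CREB3L3 (CREBH), a liver-enriched factor of the ER membrane that acts on lipid metabolism and acute-phase genes, went the other way. It had 89.3, 23.5, 19.99 and 91.2 CPM in surfactant livers and 159, 112, 137 and 146 CPM in unventilated livers, a log2 change of -1.31 ± 0.45 (edgeR adjusted p = 0.0332). The CREB3L3 call was lost without surfactant animal 032 (adjusted p = 0.061) or 049 (0.0544), or unventilated animal 057 (0.0716), 059 (0.0546) or 060 (0.0642).

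Of the ATF4 targets, TRIB3, a pseudokinase that binds AKT and ATF4, had 29.6, 70.2, 162 and 102 CPM in surfactant livers and 7.61, 5.16, 8.41 and 5.09 CPM in unventilated livers. It rose 13.9-fold, a log2 change of 3.79 ± 0.46 (edgeR adjusted p = 9.18e-05). Surfactant animal 007 was the lowest of its group and still above all 4 unventilated livers. CHAC1, which degrades glutathione, had few reads: 53, 19, 24 and 38 counts in surfactant livers and 3, 8, 10 and 6 counts in unventilated livers. It passed the filter only through the ventilated libraries and so had to differ between these groups. Its log2 change of 2.44 ± 0.41 is given as a description, with no test. ASNS, asparagine synthetase and a standard ATF4 target, ran from 2.999 to 4.61 CPM in surfactant livers and from 3.01 to 5.54 CPM in unventilated livers, with a log2 change of -0.09 and a 95% interval of -0.64 to 0.47. The 3 targets therefore did not change alike.

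The chaperones split. HSPA5 (BiP), the main ER chaperone and the protein that holds the sensors inactive, had 829, 1326, 2610 and 2864 CPM in surfactant livers and 807, 779, 1318 and 544 CPM in unventilated livers. Its log2 change was 1.15 ± 0.39 (edgeR adjusted p = 0.0313), and the ranges overlapped because surfactant animal 007 lay within the unventilated range. The HSPA5 call was lost without surfactant animal 049 (adjusted p = 0.0921) or 051 (0.101), or unventilated animal 057 (0.0727), 058 (0.0707) or 060 (0.0877). It was also lost in a fit of those 2 groups alone (0.0514), with sex as a covariate (0.075), for which liver animal 060 took the sex of its PVWM label, and with gestational age as a covariate, where the log2 change was 0.36 (0.762). DNAJB9, a co-chaperone that returns HSPA5 to IRE1-alpha, had 334, 402, 442 and 734 CPM in surfactant livers and 123, 94.6, 189 and 127 CPM in unventilated livers. With a log2 change of 1.84 ± 0.26 (edgeR adjusted p = 0.000249) it was the only gene of this role whose 2 groups did not overlap.

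The other chaperones called higher had overlapping ranges. MANF, a secreted ER stress factor, had a log2 change of 1.53 ± 0.32 (edgeR adjusted p = 0.00274). The co-chaperone DNAJB11 changed by 1.36 ± 0.34 (edgeR adjusted p = 0.00756) and HYOU1, a nucleotide exchange factor for HSPA5, by 1.07 ± 0.30 (edgeR adjusted p = 0.0126). SDF2L1, a partner of DNAJB11, had a log2 change of 0.82 ± 0.35 (edgeR adjusted p = 0.0768), and it was called higher without surfactant animal 007 (adjusted p = 0.0153) or 032 (0.0433) and by DESeq2 (0.0447). HSP90B1 (GRP94) had a log2 change of 0.34 with a 95% interval of -0.16 to 0.85, and DNAJC3, which inhibits PERK, had 0.23 with an interval of -0.21 to 0.67. The lectin chaperones, which hold glycoproteins during folding, had log2 changes of -0.11 (CALR, interval -0.58 to 0.35) and 0.01 (CANX, interval -0.27 to 0.28).

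The protein disulfide isomerases, which form and rearrange disulfide bonds, had log2 changes near 0. PDIA4 had 544, 406, 591 and 543 CPM in surfactant livers and 496, 398, 660 and 384 CPM in unventilated livers, so the surfactant range lay inside the unventilated one. The 95% intervals of the log2 change were -0.40 to 0.27 for PDIA3, -0.30 to 0.51 for PDIA4 and -0.35 to 0.44 for PDIA6. A 2-fold change in either direction, 1 on the log2 scale, lay outside all 3 intervals. SEC61B, a subunit of the channel through which proteins enter the ER, had a log2 change of 0.16 (interval -0.15 to 0.48).

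Genes of ER-associated degradation moved in both directions. HERPUD1, a scaffold of the degradation complex and a target of all sensor branches, had 223, 286, 520 and 659 CPM in surfactant livers and 140, 88.1, 184 and 103 CPM in unventilated livers, a log2 change of 1.71 ± 0.37 (edgeR adjusted p = 0.00308). DERL1, a membrane protein of the retrotranslocation channel, had 157, 225, 236 and 261 CPM in surfactant livers and 82.1, 73.9, 100 and 71.7 CPM in unventilated livers, a log2 change of 1.42 ± 0.17 (edgeR adjusted p = 8.57e-05). Its paralog DERL2 had 87.6, 58.6, 51.8 and 62.5 CPM in surfactant livers and 108, 83.0, 134 and 91.6 CPM in unventilated livers, a log2 change of -0.68 ± 0.20 (edgeR adjusted p = 0.0166). DERL1 was thus higher and DERL2 lower in the same livers, and the DERL2 call was lost without unventilated animal 059 (adjusted p = 0.0521).

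EDEM2, which trims mannose from misfolded glycoproteins, had 15.8, 15.4, 14.2 and 10.2 CPM in surfactant livers and 24.3, 20.04, 26.5 and 25.8 CPM in unventilated livers, a log2 change of -0.80 ± 0.16 (edgeR adjusted p = 0.00244). Every surfactant liver was below every unventilated liver. The ubiquitin ligase SYVN1 (HRD1), its partner SEL1L and EDEM1 had log2 changes of 0.13, -0.09 and -0.18, none of them called. DERL3 had 0 to 3 counts per library in surfactant and unventilated livers.

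**Figure D2:**
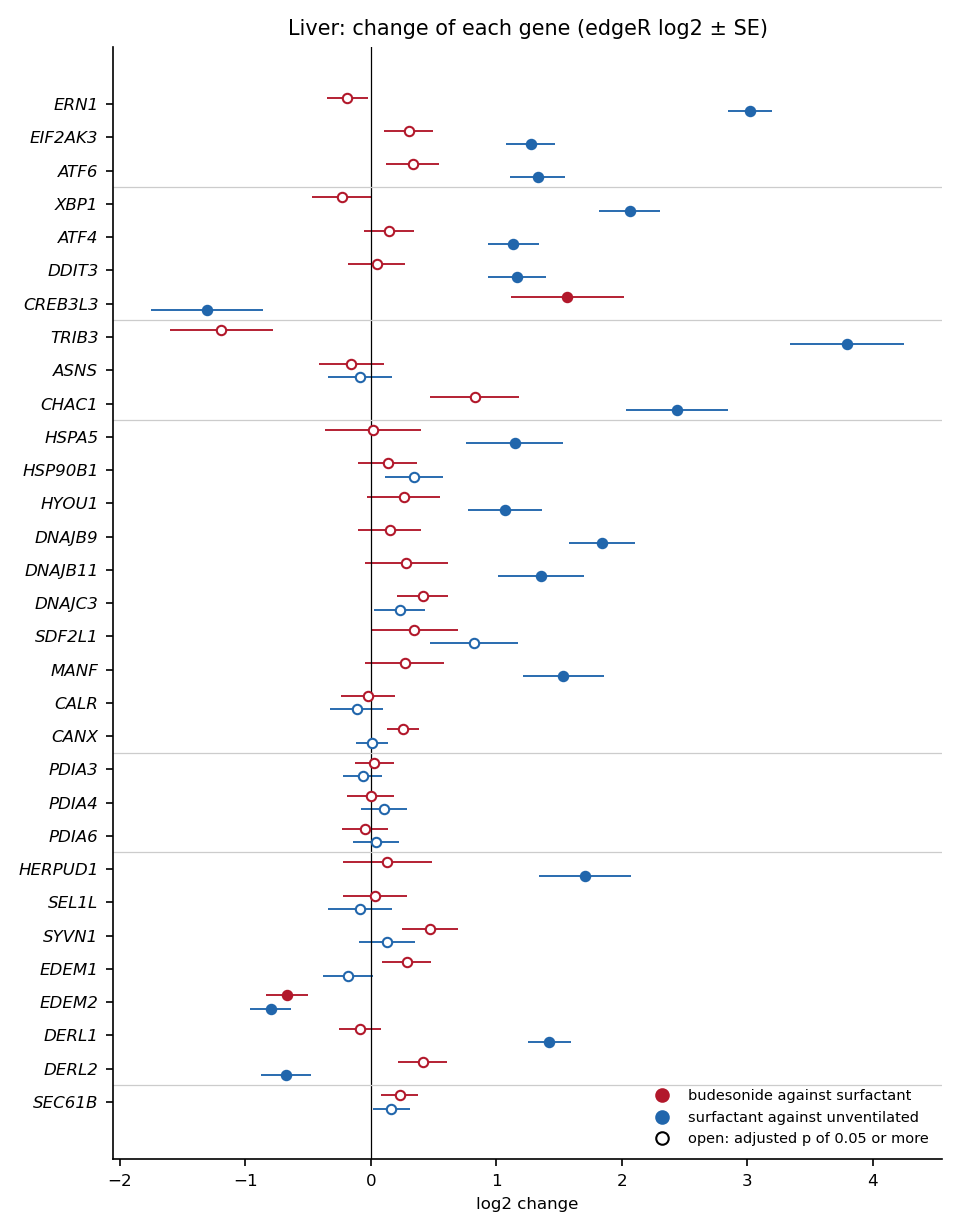
Log2 change of each tested gene in the liver, ordered by role from sensors at the top to the translocon at the bottom, with bars of 1 SE and filled points for an adjusted p under 0.05. Surfactant against unventilated points lie far to the right for ERN1 (3.02) and TRIB3 (3.79), and budesonide against surfactant points lie near 0 except for CREB3L3 (1.57), EDEM2 (-0.67), TRIB3 (-1.19) and CHAC1 (0.83), of which the first pair was called.

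With gestational age in days as a covariate, 6 of the 15 genes stayed called higher (ERN1, XBP1, TRIB3, CHAC1, DNAJB9 and DERL1). CHAC1 is among them as a description only, since it passed the filter only through the ventilated groups. No gene of the list was called lower, and 1398 genes were called in place of 6911. Among the genes that lost the call, the log2 change with age was 1.04 for EIF2AK3 (adjusted p = 0.0523), 1.12 for ATF6 (0.0642), 1.01 for ATF4 (0.0804) and 0.99 for DDIT3 (0.114). It was 1.13 for MANF (0.199), 1.15 for HERPUD1 (0.253), 0.58 for DNAJB11 (0.504), 0.39 for HYOU1 (0.611) and 0.36 for HSPA5 (0.762). Of the lower genes, EDEM2 had -0.64 (0.13), CREB3L3 -1.13 (0.294) and DERL2 -0.47 (0.334). The changes of HSPA5, HYOU1 and DNAJB11 were thus smaller by more than 1.5 times than those without the covariate. Those of all other genes that lost the call, higher or lower, were within 1.5 times. In each ventilated group only the male of 127 days differed in age from the others, so age and sex cannot be told apart there.

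Marker genes of other cells differed between the same groups. Summed CPM of 11 neutrophil and myeloid genes was 271 to 584 in surfactant livers and 148 to 201 in unventilated livers, and none of the 11 was at 0. The 10 genes listed for plasma and B cells, which have a rich ER, summed to 22.2 to 82.2 CPM in surfactant livers and 12.7 to 13.6 CPM in unventilated livers. PRDM1 alone gave 13.1 to 68.9 CPM of this sum in surfactant livers and 6.03 to 7.17 CPM in unventilated livers, while MZB1 stayed at or under 0.333 CPM and TNFRSF17 at or under 0.0913 CPM in both groups. The 10 hepatocyte genes summed to 218686 to 259255 CPM in surfactant livers and 194502 to 254491 CPM in unventilated livers. The part of these cells in the gene changes was not tested.

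Between budesonide and surfactant livers, CREB3L3 and EDEM2 were the genes of the set that were called. Of the 31 genes, 1 (CREB3L3) was higher and 1 (EDEM2) lower in budesonide than in surfactant livers, 3.23% each, against 4.01% higher and 7.85% lower among all 16824 genes (1994 called, 11.9%). With 1 gene in each direction, nothing is read from the count about the set. Ranges did not overlap for 3 higher genes (CREB3L3, CHAC1 and CANX) and 1 lower gene (EDEM2), against 6.29% and 8.1% of all genes (14.4% in either direction). This comparison and the one before it share the surfactant livers.

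CREB3L3 had 211, 202, 145 and 105 CPM in budesonide livers and 89.3, 23.5, 19.99 and 91.2 CPM in surfactant livers. The groups did not overlap, and the budesonide livers lay around the unventilated level of 139 ± 19.8 CPM (SD, n = 4). The log2 change was 1.57 ± 0.45, a 2.96-fold difference (edgeR adjusted p = 0.0413). The call was lost without budesonide animal 031 (adjusted p = 0.103), 048 (0.0958) or 050 (0.0643), or surfactant animal 032 (0.0798) or 049 (0.0772). It was also lost with gestational age (0.0522) or sex (0.0551) as a covariate, with no filter on low counts (0.0574) and in a fit of those 2 groups alone (0.0927).

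EDEM2 had 8.96, 9.23, 8.96 and 7.85 CPM in budesonide livers and 15.8, 15.4, 14.2 and 10.2 CPM in surfactant livers, a log2 change of -0.67 ± 0.17 (edgeR adjusted p = 0.0235). It was lower in all 4 budesonide livers, and its call was lost without budesonide animal 031 (adjusted p = 0.0595) or 048 (0.0515), or surfactant animal 032 (0.0501), and in a fit of those 2 groups alone (0.0759).

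A pair of ATF4 targets differed without passing the test. TRIB3 had 25.1, 56.8, 38.5 and 39.0 CPM in budesonide livers against 29.6, 70.2, 162 and 102 CPM in surfactant livers, a log2 change of -1.19 ± 0.41 (edgeR adjusted p = 0.0764). CHAC1 had 3.67, 3.04, 3.26 and 3.15 CPM in budesonide livers and 2.95, 1.14, 1.33 and 1.96 CPM in surfactant livers, a log2 change of 0.83 ± 0.35 (edgeR adjusted p = 0.138). In both cases surfactant animal 007 was the one nearest to the budesonide livers. Without it TRIB3 was called lower (adjusted p = 0.00976) and CHAC1 and DERL2 were called higher (0.0421 and 0.0467), and without surfactant animal 051 DNAJC3 was called higher (0.0331). DESeq2 also called TRIB3 lower (adjusted p = 0.0268).

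For ERN1 the interval of the difference was narrow beside the change between surfactant and unventilated livers. For EIF2AK3 and ATF6 it was not, and log2 differences of up to 0.72 and 0.79 lay within the intervals. The log2 change between budesonide and surfactant livers was -0.19 for ERN1 (95% interval -0.53 to 0.16), 0.30 for EIF2AK3 (-0.11 to 0.72) and 0.33 for ATF6 (-0.13 to 0.79). XBP1 had 779, 1042, 913 and 958 CPM in budesonide livers, within the surfactant range, and a log2 change of -0.23 (interval -0.74 to 0.28). HSPA5 had 1726, 2376, 2368 and 1247 CPM in budesonide livers, a log2 change of 0.02 against surfactant livers, and a wide interval of -0.81 to 0.84. For HSPA5, a difference of up to 0.84 on the log2 scale therefore lies within the interval. The 8 endothelial genes summed to 251 to 298 CPM in budesonide livers and 413 to 537 CPM in surfactant livers, and the part of this in the gene changes was not tested.

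Set against unventilated livers, budesonide livers had 19 genes higher (61.3%) and 1 lower (3.23%) of the 31 tested, against 23.3% higher and 23.7% lower among all genes (7903 called, 47%). Ranges did not overlap for 16 higher genes and 1 lower gene, against 23.7% and 25.1% of all genes (48.8% in either direction). CHAC1, which is among both the 19 and the 16 higher genes, again passed the filter only through the ventilated groups. Without genes of that kind 18 of 30 (60%) were called higher and 1 (3.33%) lower, against 23.7% and 22.1% of all genes. Overlap of ranges was not recounted in this way, so nothing is read from that count. Summed CPM of the neutrophil and myeloid genes was 246 to 319 in budesonide livers and 148 to 201 in unventilated livers, and that of the plasma and B cell genes 26.5 to 35.6 in budesonide livers and 12.7 to 13.6 in unventilated livers, both without overlap. Their part in the gene changes was not tested. The unventilated livers are shared with the surfactant comparison. HSPA5, HYOU1, DNAJB9, DNAJB11, MANF, SDF2L1 and DNAJC3 were the 7 chaperones and co-chaperones called higher. SDF2L1 had 23.2, 35.1, 32.8 and 21.5 CPM in budesonide livers and 12.6, 15.2, 12.7 and 9.60 CPM in unventilated livers, with no overlap and a log2 change of 1.17 ± 0.35 (edgeR adjusted p = 0.0162). DNAJB9 had 562, 538, 576 and 448 CPM and DERL1 203, 215, 215 and 194 CPM in budesonide livers, also above all unventilated livers. EIF2AK3 had 70.7, 67.4, 95.3 and 58.1 CPM and ATF6 267, 237, 292 and 179 CPM in budesonide livers, all above the unventilated livers. EDEM2 had its largest difference here, a log2 change of -1.46 ± 0.17 (edgeR adjusted p = 3.43e-05), while CREB3L3 had 0.26 ± 0.44 (edgeR adjusted p = 0.653).

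Several of these calls were lost when any 1 of several libraries was left out. SYVN1 (log2 change 0.60 ± 0.22, edgeR adjusted p = 0.0425), SEC61B (0.39 ± 0.15, 0.0413) and DNAJC3 (0.64 ± 0.21, 0.0215) had overlapping ranges. Leaving out 1 library raised the adjusted p above the threshold for SYVN1 (budesonide 031, 048 or 050, unventilated 057, 058 or 060; 0.0578 to 0.124), for SEC61B (budesonide 031, 050 or 054, unventilated 057, 058 or 060; 0.064 to 0.126) and for DNAJC3 (budesonide 048 or 050, unventilated 058 or 060; 0.0525 to 0.0648). HSPA5 (1.16 ± 0.39, 0.026) was likewise lost without budesonide 048 or 050 or unventilated 057, 058 or 060 (0.0598 to 0.0752). HSP90B1 (0.48 ± 0.23, 0.109) was called higher without budesonide 054 (0.0464) or unventilated 059 (0.0447), and DESeq2 also called CANX higher (0.0181). The SEC61B and SYVN1 calls were lost with sex as a covariate (0.0585 and 0.0681), and that of SEC61B with no filter on low counts (0.0601). With gestational age as a covariate 9 genes stayed higher, the 6 named above with EIF2AK3, ATF6 and ATF4, and EDEM2 stayed lower. CHAC1 is again in this count as a description only. The log2 change with age was 0.41 for HSPA5 (adjusted p = 0.698), 0.36 for SDF2L1 (0.645), 0.67 for HYOU1 (0.311), 0.90 for DNAJB11 (0.232) and 0.37 for DNAJC3 (0.461).

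Animals of 1 group differed along most of the chaperones at once. Among surfactant livers, animal 051 had the highest level of all 10 tested chaperones and co-chaperones and animal 007 the lowest of 8, whereas over all genes tested 051 was highest in 26.7% and 007 lowest in 30%. The mean log2 CPM of the 10 genes was 7.52 in animal 007, 7.84 in 032, 8.38 in 049 and 8.68 in 051. In budesonide livers animal 054 was lowest for all 10 (30.3% of all genes), with a mean of 8.04 against 8.31 to 8.60 in the other 3. In unventilated livers animal 059 was highest for 9 of the 10, and for 28 of the 31 genes (36.7% of all genes). Animals 007 and 054 are the male of 127 days in each ventilated group, so sex, age and animal cannot be told apart there. Myeloid marker genes summed to 584 CPM in the liver of animal 051 and 271 CPM in that of animal 007, and their part in the order of animals was not tested. TMM scaling factors of library size were 1.025, 0.938, 0.848 and 0.839 in surfactant livers 007, 032, 049 and 051, falling as the means rose. Unventilated animal 059 had the lowest factor of its group (1.038), whereas budesonide animal 054 (0.967) lay inside the range of its group. The part of scaling and depth was not tested.

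**Figure D3:**
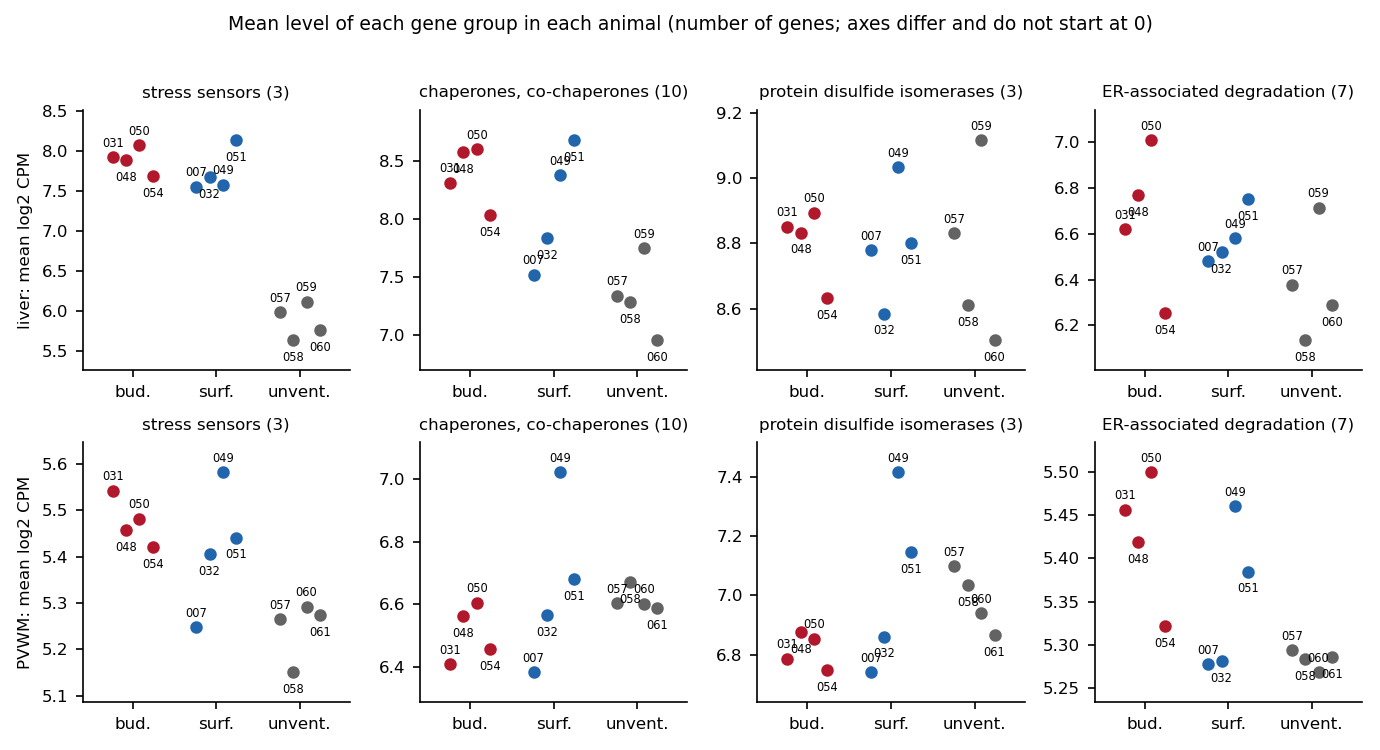
Mean log2 CPM of 4 gene groups in each animal (points, labelled with the animal number), liver in the upper row and PVWM in the lower row, with budesonide, surfactant and unventilated animals from left to right. In the liver the sensors of the 8 ventilated animals (7.55 to 8.13) lie above those of the 4 unventilated animals (5.63 to 6.11), and the chaperones of surfactant animals spread from 7.52 to 8.68.

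Surfactant animals also differed in PVWM, with another animal at the top. Among surfactant PVWM samples, animal 049 was highest for all 10 chaperones (24.9% of all genes) and animal 007 lowest for 9 (25.4% of all genes). HSPA5 had 256, 360, 653 and 386 CPM in surfactant animals 007, 032, 049 and 051, against 394, 357, 352 and 320 CPM in the 4 unventilated animals. Surfactant animals thus lay both above and below the unventilated range. The mean log2 CPM of the 10 genes was 7.02 in animal 049 and 6.38 in animal 007, a wider range than the 6.59 to 6.67 of unventilated animals.

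In PVWM no gene of the set was called between surfactant and unventilated lambs by edgeR or by DESeq2 (0 of 30 either way, against 1.35% higher and 0.698% lower of all 18616 genes, 2.05% in all, 382 called by edgeR). At an unadjusted p under 0.05, edgeR counted 4 genes, all higher: HERPUD1, EIF2AK3, DDIT3 and ASNS. The share of all genes under that unadjusted p was not counted, so nothing is read from the number. EIF2AK3 had 29.8, 33.1, 43.3 and 34.0 CPM in surfactant PVWM and 28.7, 28.5, 28.8 and 26.9 CPM in unventilated PVWM, with no overlap and a log2 change of 0.31 ± 0.11 (edgeR adjusted p = 0.182). ASNS also did not overlap, with 33.9, 29.8, 28.9 and 32.0 CPM in surfactant PVWM and 27.6, 27.8, 26.8 and 25.6 CPM in unventilated PVWM. These were the only pair of the list without overlap, both higher, against 4.7% higher and 3.7% lower of all genes (8.4% in either direction). HERPUD1 had 44.7, 52.7, 99.0 and 70.3 CPM in surfactant PVWM and 42.3, 48.1, 41.6 and 42.1 CPM in unventilated PVWM (log2 change 0.61 ± 0.21, edgeR adjusted p = 0.181), and DDIT3 had 6.79, 10.2, 13.3 and 12.3 CPM in surfactant PVWM and 7.24, 7.19, 6.70 and 6.50 CPM in unventilated PVWM (0.62 ± 0.22, edgeR adjusted p = 0.2).

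The other sensors and factors overlapped between these groups in PVWM. ATF6 had 94.5, 113, 110 and 105 CPM in surfactant PVWM and 86.8, 97.6, 99.3 and 103 CPM in unventilated PVWM, a log2 change of 0.13 (95% interval -0.04 to 0.30). ATF4 had 272, 277, 347 and 323 CPM in surfactant PVWM and 308, 342, 281 and 279 CPM in unventilated PVWM, a log2 change of 0.01 (interval -0.24 to 0.26). CREB3L3 had 4.13, 5.08, 4.45 and 7.49 CPM in surfactant PVWM and 5.52, 3.53, 4.70 and 6.81 CPM in unventilated PVWM, a log2 change of 0.04 (interval -0.61 to 0.69). XBP1 had 102, 98.9, 86.0 and 78.5 CPM in unventilated PVWM, and its log2 change in surfactant PVWM was 0.01 (interval -0.37 to 0.39).

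The remaining genes of small p overlapped as well. Among the co-chaperones, DNAJC3 had 72.6, 87.9, 115 and 90.2 CPM in surfactant PVWM and 72.8, 85.4, 83.0 and 78.6 CPM in unventilated PVWM, and DNAJB9 had 38.5, 47.3, 51.8 and 41.2 CPM in surfactant PVWM and 24.8, 43.8, 43.0 and 41.7 CPM in unventilated PVWM. PDIA6 had 94.7, 103, 141 and 149 CPM in surfactant PVWM and 117, 114, 106 and 105 CPM in unventilated PVWM. Of the mannose-trimming proteins, EDEM1 had 22.9, 22.0, 27.8 and 24.3 CPM in surfactant PVWM and 22.5, 20.5, 22.4 and 23.04 CPM in unventilated PVWM, and EDEM2 had 22.1, 16.6, 13.9 and 22.0 CPM in surfactant PVWM and 23.6, 18.9, 19.8 and 22.5 CPM in unventilated PVWM. The 5 genes had log2 changes from -0.18 to 0.22.

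Between budesonide and surfactant PVWM no gene of the set was called by edgeR or by DESeq2 either (0 of 30, against 0.591% higher and 0.387% lower of all genes, 0.978% in all, 182 called by edgeR), and no gene had ranges apart, against 4.02% higher and 3.58% lower of all genes (7.6% in either direction). At an unadjusted p under 0.05, edgeR counted 5 genes, all lower in budesonide PVWM: CALR, SDF2L1, DNAJB11, XBP1 and PDIA4. Nothing is read from this number either, since the unadjusted share of all genes was not counted. XBP1 had 57.3, 80.5, 76.8 and 55.2 CPM in budesonide PVWM and 65.8, 81.5, 119 and 101 CPM in surfactant PVWM, a log2 change of -0.45 ± 0.18 (edgeR adjusted p = 0.324). The ranges overlapped, and surfactant animal 049 was the highest of the 8 samples. EDEM2 and CREB3L3, which were called in the liver, had 20.04, 16.97, 19.9 and 17.2 CPM and 8.94, 5.85, 3.81 and 4.02 CPM in budesonide PVWM. Their log2 changes against surfactant PVWM were -0.01 (95% interval -0.33 to 0.31) and 0.10 (interval -0.54 to 0.74). Log2 changes over the 30 genes ran from -0.45 to 0.24.

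Against unventilated PVWM, budesonide PVWM had 1 gene called lower, SDF2L1 (3.33%, against 3.71% lower and 4.35% higher among all genes, 8.06% in all, 1501 called). SDF2L1 had 4.88, 4.75, 4.97 and 5.47 CPM in budesonide PVWM and 7.85, 7.19, 7.46 and 7.31 CPM in unventilated PVWM. The groups were apart, and the log2 change was -0.57 ± 0.15 (edgeR adjusted p = 0.0364). Leaving out any 1 of the 8 libraries ended the call, with adjusted p from 0.0595 without budesonide animal 054 to 0.0895 without budesonide animal 048. It also ended with gestational age (0.328) or sex (0.151) as a covariate and with no filter on low counts (0.052). In 11 of the 30 genes the ranges did not overlap, 7 higher and 4 lower, against 9.08% higher and 8.08% lower of all genes (17.2% in either direction). EIF2AK3 had 34.7, 34.6, 39.3 and 35.0 CPM in budesonide PVWM, above all unventilated samples (log2 change 0.35 ± 0.11, edgeR adjusted p = 0.0664), whereas CALR had 256, 327, 319 and 282 CPM in budesonide PVWM and 403, 395, 350 and 365 CPM in unventilated PVWM (-0.35 ± 0.13, edgeR adjusted p = 0.118).

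The other sensors and factors in budesonide PVWM were not called against unventilated PVWM. ERN1 had 27.9, 21.6, 21.1 and 19.7 CPM, ATF4 312, 288, 403 and 324 CPM, ATF6 104, 113, 107 and 113 CPM and DDIT3 8.48, 7.82, 13.9 and 8.49 CPM in budesonide PVWM. ATF6 and DDIT3 lay above all unventilated samples, with log2 changes of 0.17 ± 0.08 and 0.49 ± 0.22 (edgeR adjusted p = 0.212 and 0.22), and ERN1 and ATF4 overlapped with them. DESeq2 called 4 genes higher here, EIF2AK3, HERPUD1, DNAJC3 and EDEM1, among 2126 genes called over all genes. A fit of those 2 groups alone called EIF2AK3, HERPUD1 and DNAJC3 higher and CALR and DNAJB11 lower beside SDF2L1, among 1664 called over all genes. Nothing is read from these counts about the set. XBP1 was called lower with gestational age as a covariate (-0.95, 0.0366). The 10 genes of macrophages and microglia summed to 112 to 146 CPM in budesonide PVWM, 208 to 292 CPM in surfactant PVWM and 260 to 270 CPM in unventilated PVWM, with at most 1 gene at 0, and their part was not tested.

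The difference between tissues in the change of surfactant against unventilated lambs was tested directly in a fit of all 24 libraries, by subtracting the PVWM change from that in liver. It was called for 14 of 31 genes, 13 higher in liver (41.9%) and 1 lower (3.23%), against 14.6% higher and 11.2% lower among all 20010 genes tested (25.8% in all). CHAC1 in liver and TRIB3 in PVWM passed the filter only through groups where they are high. Without genes of that kind 11 of 29 (37.9%) were higher and 1 (3.45%) lower, against 17% and 13.1% of all genes. ERN1 had a log2 difference of 3.01 ± 0.21 (edgeR adjusted p = 2.98e-09): in PVWM it had 19.2, 20.1, 22.9 and 22.8 CPM in surfactant lambs and 22.6, 15.9, 20.8 and 20.7 CPM in unventilated lambs. Those PVWM groups overlapped, unlike the liver groups. XBP1 differed by 2.14 ± 0.31, DNAJB9 by 1.70 ± 0.30, DERL1 by 1.47 ± 0.19, ATF6 by 1.28 ± 0.23, ATF4 by 1.21 ± 0.24 and EIF2AK3 by 1.04 ± 0.22 (edgeR adjusted p from 9.77e-06 for DERL1 to 0.00165 for EIF2AK3).

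**Figure D4:**
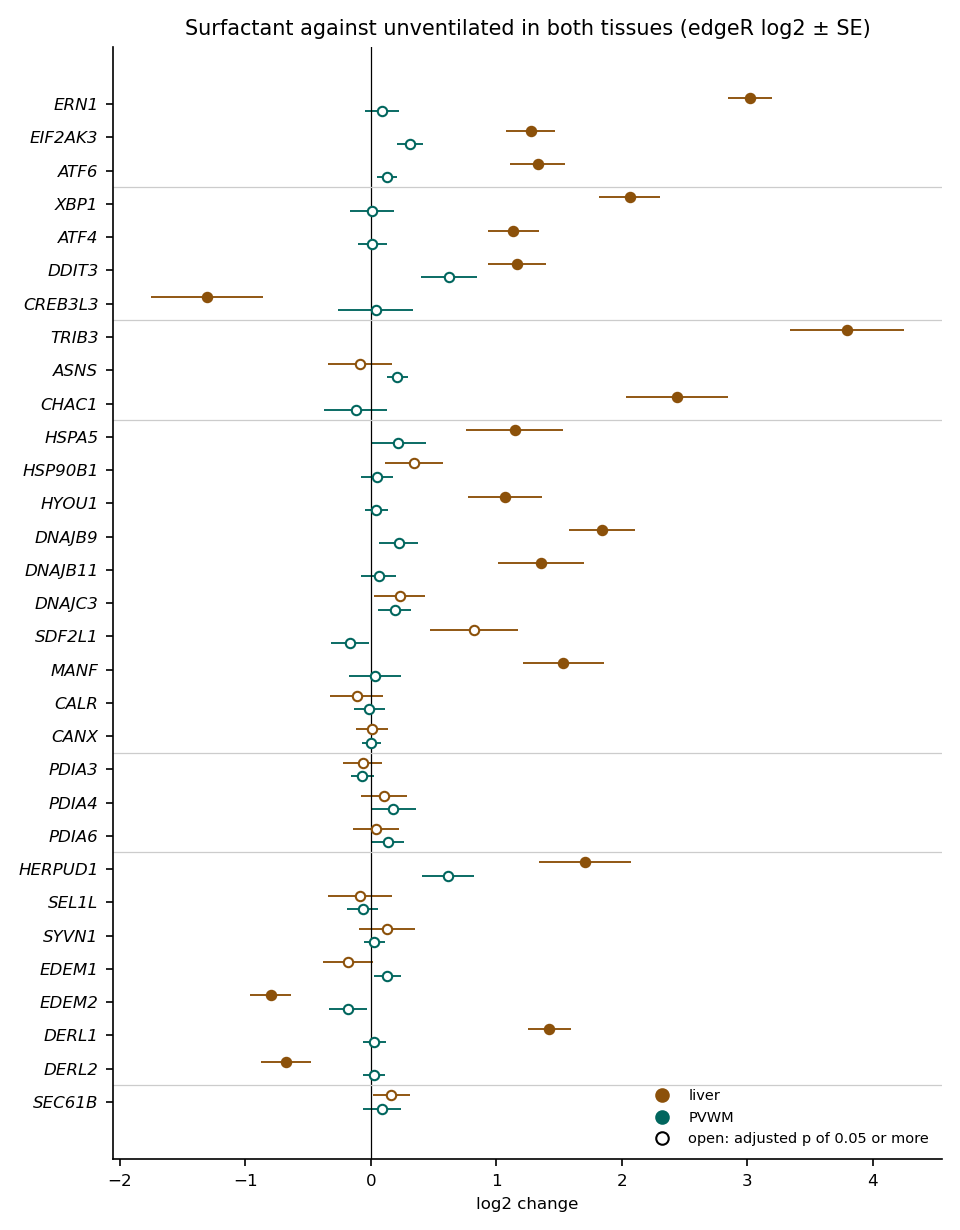
Log2 change of each gene between surfactant and unventilated lambs in liver (brown) and PVWM (green), with bars of 1 SE and filled points for an adjusted p under 0.05. In PVWM every point is open and lies between -0.18 and 0.62, whereas in liver ERN1, XBP1, TRIB3 and CHAC1 lie above 2.

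MANF differed by 1.60 ± 0.40 (edgeR adjusted p = 0.00495) and DNAJB11 by 1.38 ± 0.38 (0.0107). CHAC1 and TRIB3 had log2 differences of 2.64 ± 0.47 and 3.99 ± 1.12, given as a description with no test, since CHAC1 had 3 to 10 counts per unventilated liver and TRIB3 1 to 7 counts per library in surfactant and unventilated PVWM. The call for HYOU1 (1.11 ± 0.33, 0.015) was lost without animal 051 (adjusted p = 0.0742) or 057 (0.0573). HERPUD1 (1.18 ± 0.43, 0.0481) was lost without animal 032, 051, 057, 058, 060 or 061 (0.0617 to 0.16), and with median-ratio size factors (0.0589) or no filter on low counts (0.0603). DERL2 was the gene lower in liver (-0.63 ± 0.21, 0.0279), and it was lost without animal 032, 049, 051, 057, 059 or 061 (0.0505 to 0.0812). With the animal as a block, over the 11 lambs with both tissues, DERL2 had -0.51 (edgeR adjusted p = 0.0971), and HSPA5 and CREB3L3 were called as well, at 1.24 (adjusted p = 0.0148) and -1.76 (0.0174), against 1.02 (0.113) and -1.28 (0.102) without the block. Without animal 007, HSPA5 (adjusted p = 0.046), CREB3L3 (0.0368) and SDF2L1 (0.0131) were called, SDF2L1 also without animal 032 (0.0436) and EDEM2 without animal 049 (0.0328).

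Gestational age was also tried as a covariate with its own slope in each tissue, an alternative chosen after seeing the data. ERN1 (3.10, edgeR adjusted p = 2.47e-05), XBP1 (2.41, 0.00492) and DERL1 (1.19, 0.0242) stayed called, and 664 genes were called in place of 5170. CHAC1 kept its call too, but its value is a description only. The calls of ATF4 (1.23, 0.0693), DNAJB9 (1.52, 0.108), ATF6 (1.00, 0.133), MANF (1.66, 0.139) and EIF2AK3 (0.91, 0.149) were lost. DNAJB11 (0.80, 0.49), HERPUD1 (0.96, 0.514), HYOU1 (0.56, 0.569), DERL2 (-0.36, 0.601) and TRIB3 lost theirs as well. With sex in the same form, and PVWM animal 061 left out, HYOU1 (0.0602), HERPUD1 (0.0996) and DERL2 (0.101) lost the call. DDIT3, with 0.63 and an interval of -0.05 to 1.30, was not shown to differ between tissues.

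The effect of budesonide against surfactant was not shown to differ between tissues for any gene of the set by edgeR (0 of 31, against 1.41% higher and 2% lower of all genes, 3.41% in all, 683 called). At an unadjusted p under 0.05 edgeR counted 6 genes, 5 higher and 1 lower in liver. The unadjusted share of all genes was not counted here, and nothing is read from the number. EDEM2 had -0.65 ± 0.22 (edgeR adjusted p = 0.116), CHAC1 1.13 ± 0.42 (0.146) and CREB3L3 1.48 ± 0.57 (0.155), the liver change minus the PVWM change on the log2 scale. With the animal as a block CREB3L3 was called, at 1.79 (adjusted p = 0.0449). CHAC1 was called without animal 007 (adjusted p = 0.0384) and EDEM2 without animal 051 (0.021).

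In unventilated lambs, liver had higher relative levels than PVWM for 29 of the 31 genes (93.5%) and lower levels for 2 (6.45%), against 36.1% higher and 41.7% lower among all 20010 genes (77.9% in all). Without genes that passed the filter through 1 tissue only (CHAC1 and TRIB3 of the set) 28 of 29 (96.6%) were higher and 1 (3.45%) lower, against 38.5% and 34.8% of all genes. CPM here is scaled over both tissues together. The median log2 difference, liver over PVWM, was 1.83 over the 31 genes and -0.11 over all genes. Secretory hepatocytes and white matter differ in most transcripts, and the values describe that baseline.

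**Figure D5:**
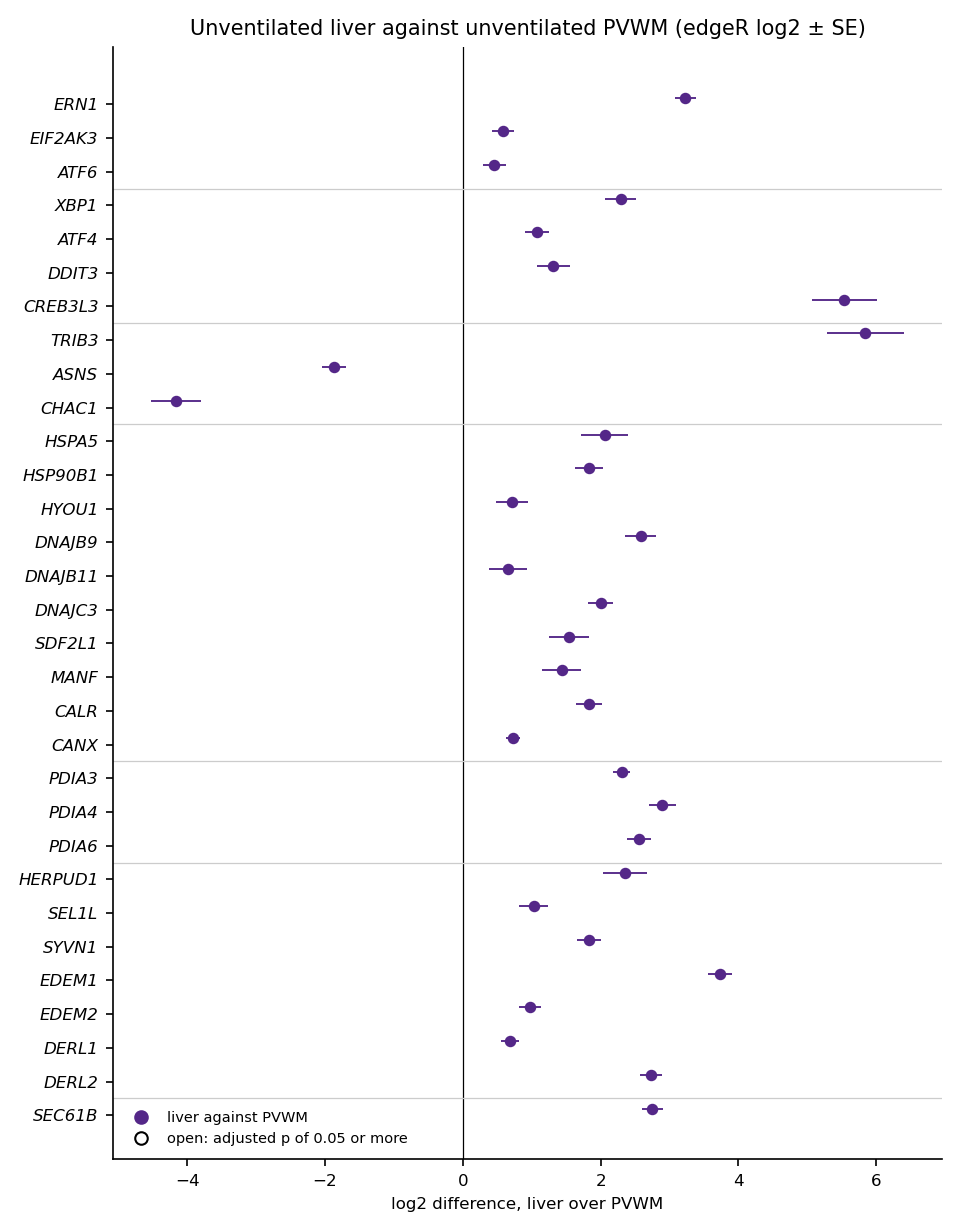
Log2 difference of each gene between liver and PVWM of unventilated lambs, 4 animals per tissue, with bars of 1 SE. All points are filled (adjusted p under 0.05), 29 lie to the right of 0 (higher in liver), and ASNS (-1.86) and CHAC1 (-4.17) lie to the left.

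ERN1 averaged 143 ± 19.2 CPM in liver and 15.2 ± 2.38 CPM in PVWM (SD, n = 4 each), a log2 difference of 3.23 ± 0.16, wider than those of EIF2AK3 (0.59 ± 0.16) and ATF6 (0.46 ± 0.16). EDEM1 averaged 223 ± 10.7 CPM in liver and 16.8 ± 0.977 CPM in PVWM, a log2 difference of 3.73 ± 0.18. Its relative EDEM2 differed less, by 0.98 ± 0.16. CREB3L3 averaged 182 ± 25.3 CPM in liver and 3.90 ± 1.07 CPM in PVWM, and DERL2 136 ± 24.6 CPM in liver and 20.5 ± 0.498 CPM in PVWM. The disulfide isomerases differed by 2.31 (PDIA3), 2.89 (PDIA4) and 2.56 (PDIA6) on the log2 scale. ASNS was lower in liver, at 5.61 ± 1.40 CPM against 20.4 ± 0.914 CPM in PVWM, and so was CHAC1, at 0.445 ± 0.232 CPM against 7.97 ± 1.20 CPM. TRIB3, the other ATF4 target of the list, ran the opposite way, at 8.58 ± 2.00 CPM in liver against 0.142 ± 0.0865 CPM in PVWM. DNAJB11 (0.66 ± 0.27, edgeR adjusted p = 0.0327) and ATF6 (edgeR adjusted p = 0.0126) lost their calls with the animal as a block (adjusted p = 0.0602 and 0.092) and without single animals (057, 058, 059 or 061 for DNAJB11, 0.0627 to 0.102; 057 or 059 for ATF6, 0.0602 and 0.0681).

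Further genes of the same pathways were taken from 7 lists of 155 genes, of which 141 were in the tables. The lists were chosen with earlier results of these data known. Genes that passed the filter through 1 group only were not set apart in them. Their shares, here and in the comparisons below, are a description and not separate support for the set. In surfactant against unventilated livers 53 of the 139 tested were higher (38.1%) and 12 lower (8.63%), against 21.6% and 19.5% of all genes tested. For translocation into the ER and signal cleavage the count was 11 higher (52.4%) and 0 lower of 21, among them SEC61G (log2 change 1.36 ± 0.22), a subunit of the same channel as SEC61B, and SRP19 of the signal recognition particle (1.23 ± 0.20). Other genes of the integrated stress response gave 16 higher (59.3%) and 3 lower (11.1%) of 27, with SLC38A2, an amino acid transporter (2.25 ± 0.21), and the factors CEBPB (3.53 ± 0.37) and ATF3 (4.69 ± 0.57). This share leaves out TNFRSF10B and the tRNA synthetase genes AARS1, CARS1, EPRS1, GARS1, MARS1, NARS1, SARS1 and WARS1 of the list, which were not matched to a row. Other genes of ER-associated degradation gave 8 higher (47.1%) and 2 lower (11.8%) of 17, with NGLY1, which removes N-glycans from misfolded proteins (1.52 ± 0.16), and EDEM3 (1.16 ± 0.28).

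The other 4 lists had 16.7% to 30% of genes higher, nearer to the 21.6% of all genes, and nothing is read from their counts. Other ER foldases gave 5 higher (26.3%) and 2 lower (10.5%) of 19, with the prolyl isomerase FKBP11 (1.14 ± 0.17) and the disulfide isomerase TXNDC5 (1.14 ± 0.18). N-glycosylation gave 3 higher (16.7%) and 2 lower (11.1%) of 18, with MOGS (1.29 ± 0.20), which trims glucose, higher and ALG8 (-1.38 ± 0.23), which adds it, lower. Export from the ER gave 6 higher (30%) and 0 lower of 20, with the COPII coat genes SEC23B (1.60 ± 0.21) and SEC24A (0.90 ± 0.18). Other stress transducers gave 5 higher (27.8%) and 3 lower (16.7%) of 18. CREB3L1 and CREB3L2, of the family of CREB3L3, were higher (2.87 ± 0.29 and 1.04 ± 0.20), and TMBIM6, an ER membrane inhibitor of cell death, was lower (-0.92 ± 0.18).

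In budesonide against unventilated livers 63 of the 139 were higher (45.3%) and 16 lower (11.5%), against 23.3% and 23.7% of all genes. In budesonide against surfactant livers 4 of these 139 genes were higher (2.88%) and 5 lower (3.6%), against 4.01% and 7.85% of all genes. CREB3L1 had 45.5, 49.1, 47.6 and 77.7 CPM in budesonide livers against 55.4, 134, 147 and 147 CPM in surfactant livers, a log2 change of -1.13 ± 0.27 (edgeR adjusted p = 0.02). It thus differed in the other direction from CREB3L3, and surfactant animal 007 was the one that overlapped. CTH, a transsulfuration enzyme, had 156, 65.6, 160 and 157 CPM in budesonide livers against 51.3, 36.2, 34.4 and 66.7 CPM in surfactant livers (1.51 ± 0.31, edgeR adjusted p = 0.00956). MCFD2, a cargo receptor subunit of ER export, was higher (0.97 ± 0.21, edgeR adjusted p = 0.0138), and NGLY1 was lower (-0.56 ± 0.15, edgeR adjusted p = 0.034).

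In PVWM, 2 of 138 genes were higher (1.45%) and 1 lower (0.725%) in surfactant than in unventilated lambs, against 1.35% and 0.698% of all genes: MTHFD2 (1.76 ± 0.31) and CEBPB (1.60 ± 0.28), and SLC7A11 (-1.44 ± 0.23). In budesonide against surfactant PVWM 1 of 138 was higher (0.725%, against 0.591% of all genes), GOLGB1 (0.39 ± 0.08, edgeR adjusted p = 0.0489). In budesonide against unventilated PVWM 12 of 138 were higher (8.7%) and 1 lower (0.725%), against 4.35% and 3.71% of all genes. Of these, 6 higher genes and the lower one were of the integrated stress response, with the mitochondrial folate enzyme MTHFD2 (2.79 ± 0.31) and CTH (0.94 ± 0.17) higher and the cystine transporter SLC7A11 (-1.49 ± 0.23) lower. The other 6 higher genes were the oxidase ERO1B (0.75 ± 0.15), the prolyl isomerase FKBP14 (0.84 ± 0.21), SEC11A of the signal peptidase (0.55 ± 0.09), SSR3 of the translocon (0.41 ± 0.09), and the proteases MBTPS1 (0.39 ± 0.08) and MBTPS2 (0.45 ± 0.12), which cut ATF6.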

How the data were processed

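Liver and PVWM poly-A RNA of preterm lambs was sequenced, per the labels. The authors deposited whole-number counts per gene, 1 column per animal, with no normalization. Per the submitters' processing notes the tools were Bowtie2, featureCounts and edgeR. The sources used here give no version, genome build, annotation or strand setting, so reads of overlapping genes on opposite strands cannot be told apart.

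From the counts, edgeR 4.0.16 (R 4.3.3, limma 3.58.1) gave TMM scaling, removal of low counts by filterByExpr on the groups, and robust quasi-likelihood tests over the 3 groups of 1 tissue, or over all 24 libraries for tissue differences. Adjusted p-values are Benjamini-Hochberg over all genes tested, with a threshold of 0.05. SE was taken as the absolute log2 change over the root of its F statistic, and intervals are 95%. CPM is the count scaled by effective library size. Mean log2 CPM over gene groups used a prior count of 2. Alternatives were DESeq2 1.42.0, median-ratio size factors, no filter on low counts, only the 2 groups compared, age or sex as a covariate (PVWM animal 061, with no sex given, left out), each library left out, and the animal as a block. For the tissue differences only scaling, filter, left-out animals and the block were planned, and age or sex with a slope in each tissue was added after seeing the data.

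Animal numbers in the labels pair the tissues: deviations of the 2 libraries of an animal from their group means correlated at 0.0458 to 0.225 across genes (median 0.113, 11 animals), against a median of -0.0115 between different animals. The tables share 27693 gene names, and 23 names in each table, which are dates or date numbers, have no match in the other. The members and lists were chosen with earlier results of these data known. Values of every animal of the groups compared are given for the sensors, the factors, the genes called between budesonide and surfactant and the 10 of smallest p between surfactant and unventilated in each tissue, other genes by ranges and counts, and up to 3 called genes per further list and comparison are named. Separate animals are the replicates.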

Additional observations from a re-analysis of the deposited data

Results flagged for a closer look

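In 11 of 182 groups of 4 animals, 1 animal stood apart from the other 3 (the gap to the nearest animal was over 0.829 of the range, which chance gives in about 1 group in 20). The count of 11 is close to that share, and the groups reuse the same animals, so nothing is read from the count. In surfactant livers, animal 051 had 272 CPM of ATF6 and 81.0 CPM of EIF2AK3, against 161 to 171 CPM and 50.9 to 52.8 CPM in the other 3 animals. Animal 049 had 536 CPM of PDIA6 against 330 to 355 CPM, and animal 007 had 57.2 CPM of SEL1L against 51.3 to 52.1 CPM. In unventilated livers, animal 059 had 166 CPM of SYVN1 against 103 to 106 CPM.

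In budesonide PVWM, animal 050 had 13.9 CPM of DDIT3 against 7.82 to 8.49 CPM and 39.3 CPM of EIF2AK3 against 34.6 to 35.0 CPM. In unventilated PVWM, animal 058 had 13.0 CPM of CHAC1 against 9.41 to 10.002 CPM and 48.1 CPM of HERPUD1 against 41.6 to 42.3 CPM. Animal 057 had 24.8 CPM of DNAJB9 against 41.7 to 43.8 CPM, and animal 061 had 26.9 CPM of EIF2AK3 against 28.5 to 28.8 CPM.

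The change between surfactant and unventilated lambs differed between liver and PVWM by the interaction test of edgeR in 14 genes. The liver change minus the PVWM change, on the log2 scale, was 3.01 for ERN1, 1.04 for EIF2AK3 and 1.28 for ATF6 among the sensors, 2.14 for XBP1 and 1.21 for ATF4 among the factors, and 3.99 for TRIB3 and 2.64 for CHAC1 among the ATF4 targets. It was 1.11 for HYOU1, 1.70 for DNAJB9, 1.38 for DNAJB11 and 1.60 for MANF among the chaperones, and 1.18 for HERPUD1, 1.47 for DERL1 and -0.63 for DERL2 among the genes of degradation. CHAC1 and TRIB3 passed the filter on low counts only through groups where they are high, so their values are a description, and with gestational age as a covariate in each tissue only ERN1, XBP1, CHAC1 and DERL1 kept the call.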

How the results depend on the processing

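Of 41 calls within a tissue, 16 held under every alternative run there, 25 were lost under at least 1 and 0 reversed. Of 45 calls between tissues, tried under fewer alternatives (no DESeq2 or fit of 2 groups, and age and sex for the differences of effects but not for the unventilated levels), 33 held, 12 were lost and 0 reversed. These counts include calls of CHAC1 and TRIB3 in comparisons where they passed the filter on low counts only through groups where they are high. Of 190 results not called, 21 gained a call and 75 changed sign under at least 1 alternative. Median-ratio size factors moved the median of all genes by at most 0.0324.

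With gestational age as a covariate, genes called fell to 1398 in surfactant against unventilated liver (set: 6 higher, 0 lower). They fell to 2958 in budesonide against unventilated liver (9 higher), 346 in budesonide against unventilated PVWM and 15 in surfactant against unventilated PVWM. CHAC1, a description only, is in both liver counts of the set. In the tissue difference of surfactant against unventilated lambs, age within each tissue, added after seeing the data, left 664 genes (set: 4 higher, again with CHAC1, and 0 lower). Sex in the same form left 0 of the set lower. With sex they were 80 in budesonide against surfactant PVWM, 668 in budesonide against unventilated PVWM (set: 0 lower) and 97 in surfactant against unventilated PVWM. In fits of only the 2 groups they were 69, 174 and 884 in budesonide against surfactant PVWM, surfactant against unventilated PVWM and budesonide against surfactant liver (set: 0 higher, 0 lower), and in budesonide against unventilated PVWM 3 of the set were higher and 3 lower (1664 genes called). DESeq2 called 562, 819 and 3170 genes in those first 3 comparisons, 2 of the set lower in budesonide against surfactant liver, and 4 higher in budesonide against unventilated PVWM (2126 genes called). In budesonide against surfactant liver the set had 0 higher under age, sex and no filter. With no filter, budesonide against unventilated PVWM had 0 lower.

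With the animal as replicate block, 428 genes were called in the tissue difference of the budesonide effect in place of 683, and 1 of the set was higher. The block values that changed a call stand beside their results, and it changed no other call in the set.

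Leaving out each library in turn gave 66 to 166 genes in budesonide against surfactant PVWM, 998 to 1221 in budesonide against unventilated PVWM, 173 to 501 in surfactant against unventilated PVWM, 1007 to 2838 in budesonide against surfactant liver and 282 to 1163 in the tissue difference of the budesonide effect. In the set it gave 0 to 3 higher and 0 to 2 lower in budesonide against surfactant liver, 1 to 3 lower in surfactant against unventilated liver, 0 lower in budesonide against unventilated PVWM, 0 to 1 higher and 0 to 1 lower in the tissue difference of the budesonide effect, and 0 to 2 lower in the tissue difference of surfactant against unventilated lambs. Fits of fewer libraries have fewer samples, and the cause of these shifts was not tested. Depth limits genes with few counts per library, such as TRIB3 in PVWM (1 to 7 counts) and DERL3 in liver (0 to 5 counts).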
